A study of Mus musculus with 36 samples.

Results

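The genes described are 34 mouse genes of glycolysis and of the cellular response to low oxygen, out of 55414 genes counted in each library. They were taken by symbol from a list, and the rule itself uses no measured value. The list was chosen with earlier results of these data known. By role they comprise 3 carriers for glucose and lactate, 14 enzymes of glycolysis and lactate formation, 3 regulators of glycolytic flux, 3 genes of the oxygen-sensing switch and 11 effectors that are switched on by low oxygen in many tissues. All 34 passed the filter on low counts and were among the 20657 genes tested.

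RNA was sequenced from 36 mouse skin biopsies in a study of whether removing senescent cells that express much p21 speeds the closure of skin wounds. The wound biopsies were taken at 2, 4 and 12 days after injury from mice of an arm called PD and an arm called P, and the remaining biopsies came from unwounded skin. The PD arm had 5, 6 and 6 libraries at days 2, 4 and 12, the P arm had 5, 5 and 6, and unwounded skin had 3, labelled day 0. The labels give the arms only as the letters P and PD, and the strain, age, sex, alleles and agents of either arm and of the unwounded animals are not given in the sources used here. No label ties a library to an animal or states separate animals per library, so the p-values below measure the spread between these libraries only.

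Glycolysis splits glucose to pyruvate and yields energy without oxygen, and lactate dehydrogenase turns pyruvate to lactate, which leaves the cell through monocarboxylate carriers. When oxygen is short, the prolyl hydroxylases that mark the HIF alpha subunits for destruction slow down, and the stabilised factor binds RCGTG elements near genes of glucose uptake, glycolysis, blood vessel growth and mitochondrial turnover. In skin wounds the blood supply is cut, and arriving neutrophils and macrophages, white blood cells that rely heavily on glycolysis, fill the wound bed.

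RefSeq windows of the 250 bases before a gene's start, on build GRCm38.p6, were on hand for 31 of the 34 genes (Ndrg1, Slc2a3 and Bhlhe40 are named only). The windows of 6 genes whose values are described below are shown 5′ to 3′ on the gene's own strand, because they hold the core letters of the HIF element at different numbers and spacings. Capitals mark ACGTG or GCGTG read on either strand, so that the reverse complements CACGT and CACGC are also in capitals, and overlapping matches merge into 1 run of capitals.
Ldha, chr7:46845554-46845803, plus strand: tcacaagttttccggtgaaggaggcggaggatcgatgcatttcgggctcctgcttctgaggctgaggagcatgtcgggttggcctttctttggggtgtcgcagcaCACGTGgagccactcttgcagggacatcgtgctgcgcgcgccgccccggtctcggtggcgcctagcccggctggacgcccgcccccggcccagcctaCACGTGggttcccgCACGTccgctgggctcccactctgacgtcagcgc
Pgk1, chrX:106186850-106187099, plus strand: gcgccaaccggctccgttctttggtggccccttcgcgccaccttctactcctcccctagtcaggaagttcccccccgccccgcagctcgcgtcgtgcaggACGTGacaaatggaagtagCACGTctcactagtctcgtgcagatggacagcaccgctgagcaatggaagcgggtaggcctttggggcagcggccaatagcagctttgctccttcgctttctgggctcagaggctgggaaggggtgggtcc
Slc16a3, chr11:120948817-120949066, plus strand: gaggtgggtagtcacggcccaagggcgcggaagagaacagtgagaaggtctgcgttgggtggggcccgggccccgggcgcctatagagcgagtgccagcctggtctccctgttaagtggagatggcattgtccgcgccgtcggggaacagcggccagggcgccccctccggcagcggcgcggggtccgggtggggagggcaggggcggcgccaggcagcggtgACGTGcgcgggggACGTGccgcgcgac
Ankrd37, chr8:45999851-46000100, minus strand: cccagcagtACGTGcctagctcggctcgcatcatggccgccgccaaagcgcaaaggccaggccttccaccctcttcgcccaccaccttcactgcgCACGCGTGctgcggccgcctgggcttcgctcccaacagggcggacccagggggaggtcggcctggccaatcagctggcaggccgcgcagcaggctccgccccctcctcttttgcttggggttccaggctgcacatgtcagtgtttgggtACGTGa
Pgam1, chr19:41911621-41911870, plus strand: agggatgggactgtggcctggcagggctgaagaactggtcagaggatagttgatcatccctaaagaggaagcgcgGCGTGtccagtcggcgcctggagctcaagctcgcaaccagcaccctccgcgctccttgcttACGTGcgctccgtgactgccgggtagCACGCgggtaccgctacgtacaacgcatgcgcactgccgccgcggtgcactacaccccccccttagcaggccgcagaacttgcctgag
Eno1, chr4:150236947-150237196, plus strand: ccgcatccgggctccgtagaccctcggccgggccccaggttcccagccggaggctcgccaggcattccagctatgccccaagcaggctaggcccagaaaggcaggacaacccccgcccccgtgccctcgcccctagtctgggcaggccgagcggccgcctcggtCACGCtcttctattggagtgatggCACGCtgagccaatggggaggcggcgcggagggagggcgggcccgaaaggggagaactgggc

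ACGTG stood in the first listed window of 14 of the 31 genes (45.2%), against 16.6% of the 27025 genes with such a window. At least 2 copies stood in 6 of the 31 (19.4%), against 2.0% of all genes. GCGTG was found in 16 of the 31 windows (51.6%), against 28.2% of all genes, and either motif in 24 (77.4%), against 38.6%. The windows of the set were also richer in G and C, with a median of 62.8% against 52.0% over all genes. Among the 14 enzymes alone, 4 windows (28.6%) held ACGTG. Ldha, whose second listed window held no ACGTG, carried 3 copies in the first, and Eno1, shown with its second listed window, carried GCGTG and no ACGTG. These matches describe the letters only.

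The libraries held between 11807291 and 58375510 counted reads. Levels are counts per 1000000 counted reads (CPM) on library sizes corrected for composition by TMM. Changes are log2 ratios from edgeR's quasi-likelihood test with the standard error after the ± sign, and a gene is called where its Benjamini-Hochberg adjusted p over all 20657 tested genes is under 0.05. The 8 keratinocyte keratins listed as markers of skin summed to between 3696 and 58600 CPM in every library, so keratinocyte RNA was present throughout. In the unwounded biopsies 14 skeletal muscle genes summed to 80110 to 127900 CPM, and in wounds to between 3171 and 90330 CPM. Only PD wounds at day 4 (15670 to 88230 CPM) and day 12 (6378 to 90330 CPM) reached into the range of unwounded skin. In later fits that use this sum as a covariate, changes of the other wound groups against unwounded skin are extrapolated. Those of PD wounds at days 4 and 12 rest on a narrow overlap. Neutrophil markers (8 genes) summed to 0.786 to 2.43 CPM in unwounded skin, where Retnlg, Trem1 and Ly6g were at 0 in all 3 libraries, and to 2379 to 13920 CPM at days 2 and 4. In RNA from whole biopsies, fewer cells of a type and less RNA per cell cannot be told apart. Replicate 3 of P wounds at day 4 stood apart by hair follicle markers (6188 CPM, against 4.755 to 42.1 CPM in the other libraries of day 4), and replicates 1 and 2 of P wounds at day 12 by neutrophil markers (372 and 454 CPM), as did replicate 2 of PD wounds at day 12 (361 CPM, against 8.0 to 43.9 CPM in the others of its group). Counts of calls without these 4 libraries are given beside the counts that rest on them.

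Against unwounded skin, the set had more genes higher than lower at days 2 and 4 in both arms and mostly lower genes at day 12. At day 2, 11 of the 34 were higher and 5 lower in PD wounds, where 21% of all tested genes were higher and 18.4% lower. In P wounds at day 2, 14 were higher and 3 lower, against 22.3% and 19% of all genes. At day 4, 16 were higher and 5 lower in PD wounds, against 25.4% and 21.8% of all genes. In P wounds at day 4, 15 were higher and 4 lower, against 23.6% and 19.7%, and 15 and 2 without the 4 libraries that stand apart. At day 12 only Car9 was higher in PD wounds and 17 members were lower, against 24.2% and 20.7% of all genes, and 1 and 18 without those libraries. In P wounds at day 12, 3 were higher and 17 lower, against 23.7% and 20%, and 3 and 18 without them. The shares called were thus above the background for higher genes at days 2 and 4 and for lower genes at day 12. They were near or below it for lower genes at days 2 and 4. As the set was chosen with earlier results of these data known, this comparison is descriptive. The median log2 change over the 34 members was 0.32, 0.66 and -0.54 in PD wounds at days 2, 4 and 12, beside 0.02, 0.04 and 0.09 over all tested genes. In P wounds it was 0.64, 0.44 and -0.49, beside 0.02, 0.08 and 0.10 over all tested genes. These 6 comparisons share the same 3 unwounded libraries. The count for PD wounds at day 12 rests on them: 11 members were called without unwounded replicate 1 and 9 without unwounded replicate 2, against 18 with all 3. Without a composition factor, which put the median of all genes there at 0.33, 4 members were higher and 11 lower.

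**Figure D1:**
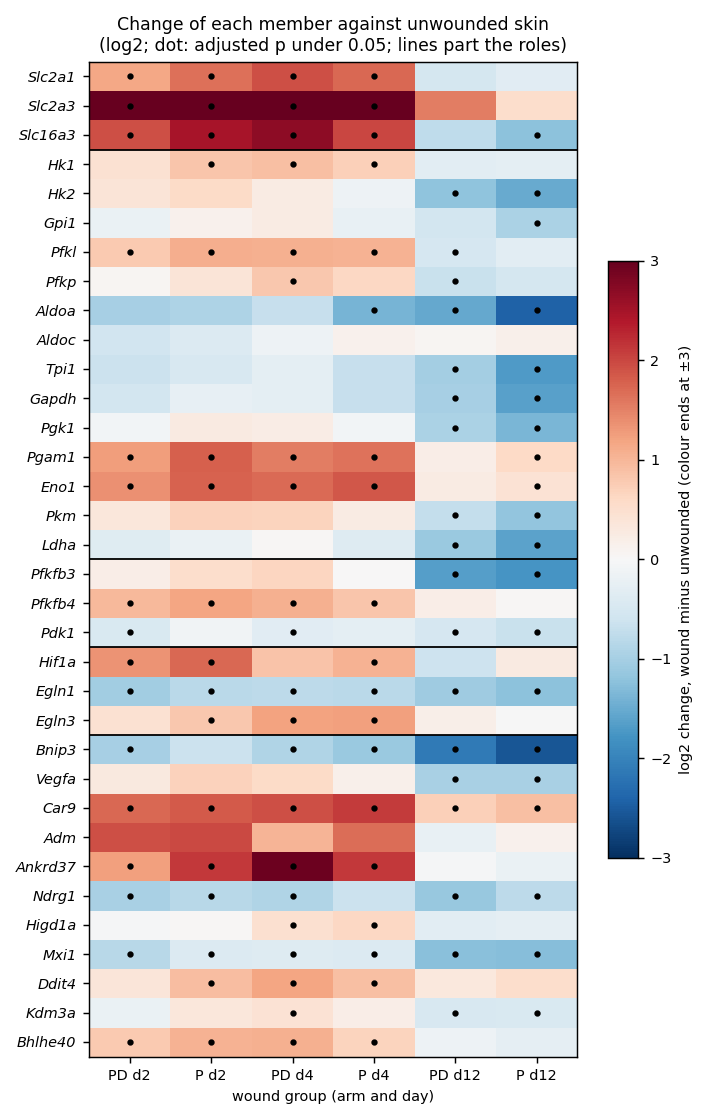
Log2 change of each of the 34 genes in PD and P wounds at days 2, 4 and 12 against unwounded skin (colour, ending at 3 in either direction), grouped by role. A dot marks an adjusted p under 0.05; the carriers are red at days 2 and 4, and most enzymes are blue at day 12.

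The 3 carriers were all higher at days 2 and 4 in both arms, and Slc2a3 had the largest increase of the 34 genes in each of those 4 comparisons. Slc2a3 (ENSMUSG00000003153, chr6:122704768-122778599, minus strand, GRCm39) encodes GLUT3, a high-affinity glucose carrier of neurons and white blood cells. It had 5.05, 3.97 and 4.88 CPM in unwounded skin, then 159, 90.1, 113, 104 and 174 CPM in PD wounds and 246, 328, 413, 161 and 111 CPM in P wounds at day 2. At day 4 Slc2a3 had 172 to 742 (median 379) CPM in PD wounds and 283, 217, 231, 499 and 172 CPM in P wounds. At day 12 Slc2a3 had 3.58 to 55.7 (median 4.48) CPM in PD wounds and 3.63 to 11.9 (median 4.69) CPM in P wounds. Every wound library of days 2 and 4 was far above every unwounded library, whereas most libraries of day 12 overlapped unwounded skin. The change at day 2 was 4.79 ± 0.86 log2 units (27.7-fold higher, adjusted p = 5.06e-05) in PD wounds, and 5.77 ± 0.90 log2 units (54.4-fold higher, adjusted p = 6.67e-06) in P wounds. At day 4 Slc2a3 changed by 6.57 ± 0.93 log2 units (95-fold higher, adjusted p = 1.34e-06) in PD wounds, and 5.92 ± 0.91 log2 units (60.6-fold higher, adjusted p = 5.95e-06) in P wounds. Neither day 12 change passed the test (1.54 log2 units, adjusted p = 0.0771 in PD wounds and 0.53 log2 units, adjusted p = 0.549 in P wounds). The change in PD wounds rests on replicate 2, at 55.7 CPM against 3.58 to 8.1 CPM in the other libraries, and without it was 0.0736 log2 units (adjusted p = 0.913).

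Slc16a3 (ENSMUSG00000025161, chr11:120838846-120851694, plus strand, GRCm39) encodes MCT4, which carries lactate out of strongly glycolytic cells. It had 84.4, 82.8 and 64.5 CPM in unwounded skin, then 300, 215, 200, 361 and 398 CPM in PD wounds and 407, 353, 599, 458 and 332 CPM in P wounds at day 2. At day 4 Slc16a3 had 232 to 948 (median 514) CPM in PD wounds and 268, 211, 158, 637 and 280 CPM in P wounds. At day 12 Slc16a3 had 19.1 to 82.5 (median 43.3) CPM in PD wounds and 12.7 to 55 (median 29.9) CPM in P wounds. All libraries of days 2 and 4 were above unwounded skin, and at day 12 all P libraries were below it. Slc16a3 rose by 1.93 ± 0.52 log2 units (3.81-fold higher, adjusted p = 0.00357) in PD wounds at day 2, and by 2.48 ± 0.53 log2 units (5.56-fold higher, adjusted p = 0.000389) in P wounds. At day 4 Slc16a3 rose by 2.69 ± 0.53 log2 units (6.46-fold higher, adjusted p = 0.00013) in PD wounds, and by 2.01 ± 0.52 log2 units (4.02-fold higher, adjusted p = 0.00252) in P wounds. At day 12 it was lower in P wounds (-1.22 ± 0.45 log2 units, 2.33-fold lower, adjusted p = 0.0269), a call lost when any of the unwounded libraries or P replicate 4, 5 or 6 was left out and with skeletal muscle expression as a covariate. In PD wounds the change at day 12 was -0.77 log2 units, adjusted p = 0.165.

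Slc2a1 (ENSMUSG00000028645, chr4:118965908-118996365, plus strand, GRCm39) encodes GLUT1, the glucose carrier of most tissues and of the basal epidermis. Its level was 90.9, 64.4 and 95.6 CPM in unwounded skin, 214, 176, 165, 177 and 206 CPM in PD wounds at day 2 and 265, 309, 309, 222 and 206 CPM in P wounds at day 2. At day 4 Slc2a1 stood at 235 to 427 (median 335) CPM in PD wounds and 262, 250, 232, 363 and 272 CPM in P wounds. At day 12 Slc2a1 stood at 24 to 95.7 (median 59.8) CPM in PD wounds and 43.2 to 97.2 (median 59.2) CPM in P wounds. Days 2 and 4 lay wholly above unwounded skin and day 12 overlapped it. The change was 1.17 ± 0.33 log2 units (2.24-fold higher, adjusted p = 0.00563) in PD wounds and 1.65 ± 0.34 log2 units (3.13-fold higher, adjusted p = 0.000228) in P wounds at day 2. At day 4 Slc2a1 changed by 1.95 ± 0.34 log2 units (3.85-fold higher, adjusted p = 2.44e-05) in PD wounds and 1.72 ± 0.34 log2 units (3.3-fold higher, adjusted p = 0.000159) in P wounds. At day 12 Slc2a1 changed by -0.52 log2 units, adjusted p = 0.156 in PD wounds and -0.35 log2 units, adjusted p = 0.358 in P wounds. Neutrophil markers moved with the carriers: 8 of 8 neutrophil genes were higher in both arms at days 2 and 4, against 21% to 25.4% of all genes. So did macrophage markers, of which 8 of 9 were higher in PD wounds and 9 in P wounds at day 2, and 9 in PD wounds and 8 in P wounds at day 4. Their 9 genes summed to 2650 to 4013 CPM in PD wounds and 3981 to 6516 CPM in P wounds at day 2, against 211 to 436 CPM in unwounded skin, and to 3405 to 6503 CPM in PD wounds and 1965 to 7137 CPM in P wounds at day 4. Other lists rose too: all 4 proliferation markers were higher in both arms at days 2 and 4, and all 5 erythroid markers at day 2. Of 8 keratinocyte markers, 3 were higher and 2 lower in each arm at day 2. At day 4, 3 were higher in PD wounds and 5 in P wounds, with 1 lower in each. Of 6 fibroblast markers, 2 were higher in PD wounds at both days, and 3 in P wounds at day 2 and 4 at day 4, with none lower. No endothelial or adipocyte marker was called higher in these groups. The part of any of these lists in the changes was not tested.

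**Figure D2:**
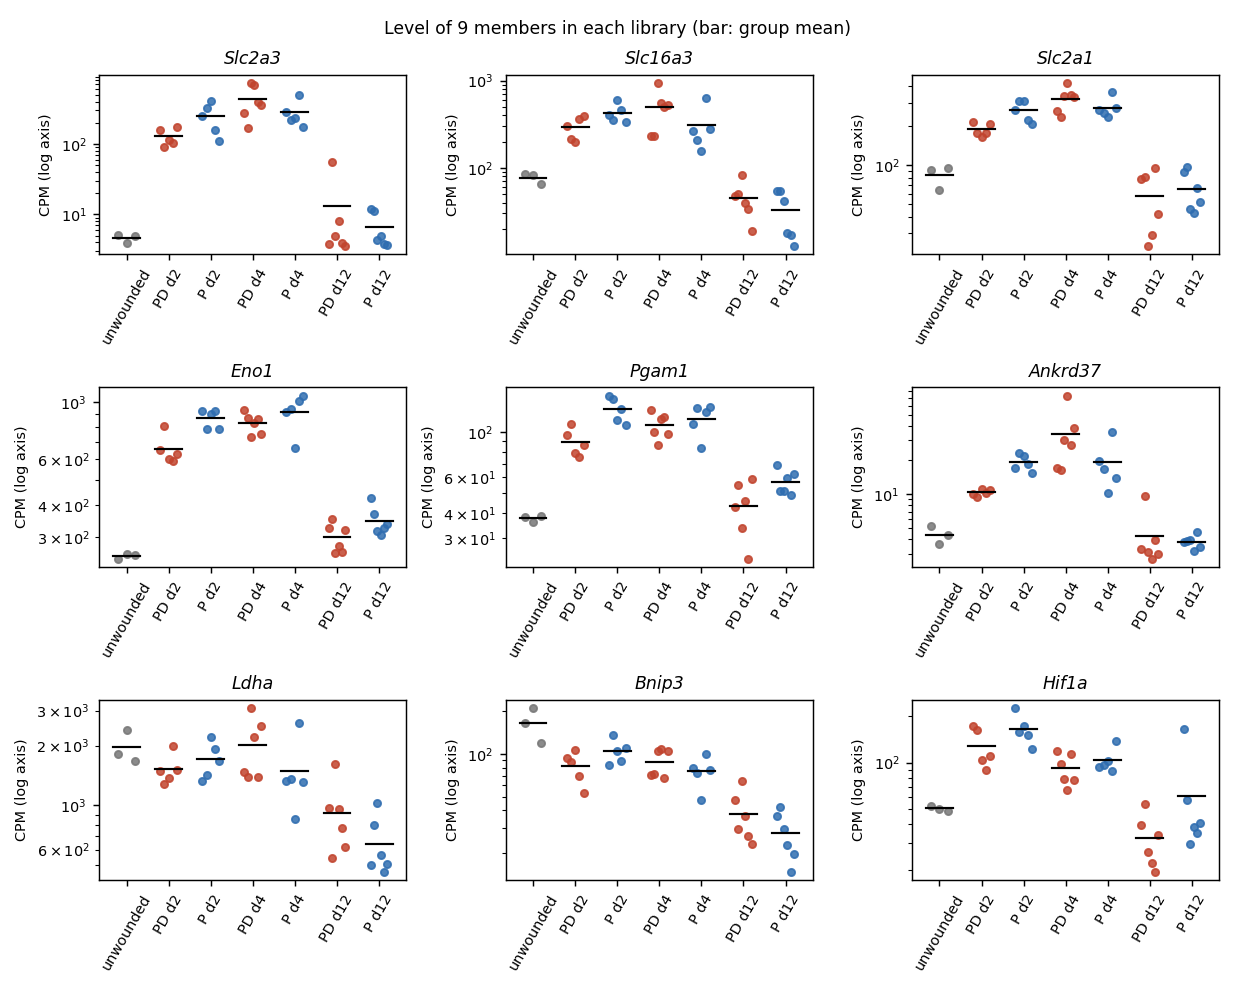
CPM (log axis) of 9 genes in each of the 36 libraries, by arm and day, with a bar at each group's mean. Slc2a3 stands between 90.1 and 742 CPM in the wounds of days 2 and 4, and between 3.97 and 5.05 CPM in unwounded skin.

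Among the 14 enzymes, 3 were higher in PD wounds and 4 in P wounds at day 2 (21.4% and 28.6%, near the 21% and 22.3% of all genes), with none lower. At day 4, 5 were higher and none lower in PD wounds, and 4 were higher and 1 lower in P wounds, where 25.4% of all genes were higher in PD wounds and 23.6% in P wounds. Eno1 (ENSMUSG00000063524, chr4:150321073-150337027, plus strand, GRCm39) encodes the enolase found in most cells, which forms phosphoenolpyruvate. Its level was 247, 258 and 257 CPM in unwounded skin, 652, 808, 601, 590 and 628 CPM in PD wounds at day 2 and 924, 789, 896, 921 and 788 CPM in P wounds at day 2. At day 4 Eno1 stood at 729 to 931 (median 843) CPM in PD wounds and 917, 942, 662, 1013 and 1059 CPM in P wounds. At day 12 Eno1 stood at 259 to 352 (median 299) CPM in PD wounds and 305 to 424 (median 332) CPM in P wounds. The 3 unwounded libraries lay close together and below every wound library, those of day 12 by a small margin. At day 2 Eno1 rose by 1.37 ± 0.14 log2 units (2.58-fold higher, adjusted p = 1.91e-08) in PD wounds and by 1.76 ± 0.15 log2 units (3.4-fold higher, adjusted p = 2.21e-10) in P wounds. At day 4 Eno1 rose by 1.70 ± 0.14 log2 units (3.26-fold higher, adjusted p = 1.74e-10) in PD wounds and by 1.85 ± 0.15 log2 units (3.62-fold higher, adjusted p = 1.2e-10) in P wounds. At day 12 Eno1 changed by 0.24 log2 units, adjusted p = 0.153 in PD wounds and 0.44 log2 units, adjusted p = 0.00876 in P wounds. With skeletal muscle expression as a covariate, a setting chosen after seeing the data, the change of Eno1 in P wounds was 1.68 ± 0.14 log2 units (adjusted p = 2e-10) at day 2 and 0.26 ± 0.15 log2 units (adjusted p = 0.186) at day 12.

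Pgam1, the phosphoglycerate mutase of most cells, went the same way. It had 38.2, 35.9 and 38.4 CPM in unwounded skin, 96.3, 110, 78.8, 75 and 86.1 CPM in PD wounds at day 2 and 151, 145, 115, 130 and 108 CPM in P wounds at day 2. At day 4 Pgam1 had 86.6 to 128 (median 108) CPM in PD wounds and 109, 131, 83.7, 126 and 132 CPM in P wounds. At day 12 Pgam1 had 23.7 to 58.4 (median 44.2) CPM in PD wounds and 48.9 to 69.1 (median 55.2) CPM in P wounds. All wound libraries of days 2 and 4 and all P libraries of day 12 exceeded unwounded skin, while PD libraries of day 12 spread on both sides of it. Pgam1 was higher at day 2 by 1.25 ± 0.21 log2 units (2.38-fold higher, adjusted p = 1.72e-05) in PD wounds and 1.79 ± 0.21 log2 units (3.46-fold higher, adjusted p = 9.13e-08) in P wounds. At day 4 Pgam1 changed by 1.52 ± 0.20 log2 units (2.88-fold higher, adjusted p = 5.46e-07) in PD wounds and 1.63 ± 0.21 log2 units (3.1-fold higher, adjusted p = 4.07e-07) in P wounds. At day 12 Pgam1 changed by 0.20 log2 units, adjusted p = 0.405 in PD wounds and 0.60 log2 units, adjusted p = 0.0133 in P wounds, and the call in P wounds was lost with the skeletal muscle covariate (0.26 ± 0.22 log2 units, adjusted p = 0.362).

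Pfkl, the liver-type phosphofructokinase that commits glucose to glycolysis, had 65.5, 57.1 and 74 CPM in unwounded skin, 115, 132, 110, 91.2 and 114 CPM in PD wounds at day 2 and 143, 134, 129, 166 and 129 CPM in P wounds at day 2. At day 4 Pfkl had 130 to 159 (median 135) CPM in PD wounds and 133, 149, 94.4, 153 and 150 CPM in P wounds. At day 12 Pfkl had 32.3 to 61.3 (median 48.4) CPM in PD wounds and 43.6 to 66.6 (median 49.3) CPM in P wounds. The libraries of days 2 and 4 were all above unwounded skin, and those of day 12 mostly below or within it. Pfkl rose at day 2 by 0.78 ± 0.18 log2 units (1.72-fold higher, adjusted p = 0.00109) in PD wounds and by 1.10 ± 0.19 log2 units (2.14-fold higher, adjusted p = 1.91e-05) in P wounds. At day 4 Pfkl rose by 1.07 ± 0.18 log2 units (2.1-fold higher, adjusted p = 1.78e-05) in PD wounds and by 1.05 ± 0.18 log2 units (2.07-fold higher, adjusted p = 3.78e-05) in P wounds. In PD wounds at day 12 it was lower (-0.51 ± 0.17 log2 units, 1.43-fold lower, adjusted p = 0.015), a call lost without unwounded replicate 1 or 3. Hk1, the hexokinase of most cells, rose in P wounds at day 2 (0.82 log2 units, adjusted p = 0.00126) and at day 4 in PD wounds (0.90 log2 units, adjusted p = 0.000363) and P wounds (0.71 log2 units, adjusted p = 0.0044). Its change in PD wounds at day 2 was 0.46 log2 units, adjusted p = 0.0591. Pfkp, the platelet-type phosphofructokinase, was higher in PD wounds at day 4 (0.80 log2 units, adjusted p = 0.0204), a call lost without PD replicate 4 or unwounded replicate 1 or 2.

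At day 12 most of the enzymes were lower. In PD wounds 9 of the 14 were lower and none higher (64.3%, against 20.7% of all genes lower), and in P wounds 8 were lower (57.1%, against 20%) and 2, Eno1 and Pgam1, higher. Summed over the 14 enzymes, the level was 4619 to 15890 CPM in PD wounds and 4056 to 9736 CPM in P wounds at day 12, against 16620 to 22510 CPM in unwounded skin. Ldha (ENSMUSG00000063229, chr7:46490899-46505061, plus strand, GRCm39) encodes the lactate dehydrogenase subunit that favours lactate formation. It had 1824, 2383 and 1681 CPM in unwounded skin, 1482, 1282, 1374, 1992 and 1505 CPM in PD wounds at day 2 and 1325, 1420, 2196, 1930 and 1674 CPM in P wounds at day 2. At day 4 Ldha had 1385 to 3075 (median 1841) CPM in PD wounds and 1332, 1362, 855, 2593 and 1319 CPM in P wounds. At day 12 Ldha had 543 to 1619 (median 863) CPM in PD wounds and 465 to 1026 (median 537) CPM in P wounds. All day 12 libraries were below all unwounded ones, and those of days 2 and 4 overlapped them. Ldha was lower at day 12, changing by -1.11 ± 0.31 log2 units (2.15-fold lower, adjusted p = 0.00458) in PD wounds and -1.61 ± 0.31 log2 units (3.05-fold lower, adjusted p = 9.89e-05) in P wounds. At day 2 its change was -0.36 log2 units, adjusted p = 0.396 in PD wounds and -0.20 log2 units, adjusted p = 0.657 in P wounds, and with the skeletal muscle covariate both signs turned, to 0.27 ± 0.14 log2 units (adjusted p = 0.135) in PD wounds and 0.38 ± 0.14 log2 units (adjusted p = 0.0304) in P wounds. At day 4 Ldha changed by 0.03 log2 units, adjusted p = 0.946 in PD wounds and -0.40 log2 units, adjusted p = 0.335 in P wounds, and the covariate gave 0.60 ± 0.14 log2 units (adjusted p = 0.000718) in PD wounds and 0.51 ± 0.15 log2 units (adjusted p = 0.00969) in P wounds.

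Aldoa (ENSMUSG00000030695, chr7:126393822-126399923, minus strand, GRCm39), the aldolase of muscle and most other cells, had 9825, 10840 and 8148 CPM in unwounded skin, 4130, 2544, 4118, 7714 and 5628 CPM in PD wounds at day 2 and 2712, 3542, 6811, 6273 and 6007 CPM in P wounds at day 2. At day 4 Aldoa had 2480 to 12690 (median 4576) CPM in PD wounds and 2709, 2558, 1567, 8864 and 2474 CPM in P wounds. At day 12 Aldoa had 1139 to 6835 (median 3161) CPM in PD wounds and 733 to 3729 (median 1417) CPM in P wounds. All day 2 and day 12 libraries were below unwounded skin. At day 4 the highest P library lay within the range of unwounded skin and the highest PD library above it. The change passed the test at day 12, with -1.53 ± 0.53 log2 units (2.89-fold lower, adjusted p = 0.019) in PD wounds and -2.43 ± 0.53 log2 units (5.39-fold lower, adjusted p = 0.000442) in P wounds, and at day 4 in P wounds (-1.40 ± 0.55 log2 units, 2.64-fold lower, adjusted p = 0.0398). The day 12 call in PD wounds was lost without unwounded replicate 1 or 2. The day 4 call in P wounds was lost under several alternatives, among them leaving out P replicate 1, and its sign turned with the skeletal muscle covariate (0.18 ± 0.16 log2 units, adjusted p = 0.381).

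Of 14 skeletal muscle genes, 3 were lower in PD wounds (21.4%, against 20.7% of all genes) and 11 in P wounds (78.6%, against 20%) at day 12. At day 4, 3 were lower in PD wounds (21.4%, against 21.8%) and 12 in P wounds (85.7%, against 19.7%). The shares in PD wounds were thus near the background, but the summed level was not near that of unwounded skin. Its median was 28440 CPM (SD 30400) at day 4 and 32250 CPM (SD 29300) at day 12 in PD wounds. In unwounded skin the median was 102300 CPM. At day 2 the median was 31590 CPM in PD wounds and 48330 CPM in P wounds. No P library reached the summed level of unwounded skin. With their summed level as a covariate, Aldoa at day 12 changed by -0.39 ± 0.14 log2 units (adjusted p = 0.0245) in PD wounds and -0.36 ± 0.17 log2 units (adjusted p = 0.0825) in P wounds. Ldha at day 12 then changed by -0.46 ± 0.14 log2 units (adjusted p = 0.00832) in PD wounds and -0.43 ± 0.16 log2 units (adjusted p = 0.0369) in P wounds, so the calls were kept at a smaller size. In that fit 15 members were called in PD wounds at day 12, against 18 without the covariate, and 11 in P wounds, against 20. The share of all genes called in that fit is not given here. Tpi1, triosephosphate isomerase, was lower at day 12, changing by -1.01 ± 0.35 log2 units (2.01-fold lower, adjusted p = 0.0197) in PD wounds and -1.70 ± 0.35 log2 units (3.24-fold lower, adjusted p = 0.000233) in P wounds without the covariate, and by -0.27 ± 0.12 log2 units (adjusted p = 0.0653) in PD wounds and -0.31 ± 0.14 log2 units (adjusted p = 0.0852) in P wounds with it. Gapdh, which takes the next step, was lower too, changing by -1.0 ± 0.37 log2 units (2.01-fold lower, adjusted p = 0.0275) in PD wounds and -1.62 ± 0.37 log2 units (3.08-fold lower, adjusted p = 0.000697) in P wounds without it, and by -0.23 ± 0.14 log2 units (adjusted p = 0.152) in PD wounds and -0.18 ± 0.16 log2 units (adjusted p = 0.362) in P wounds with it. Both genes lost their calls with it in both arms, and in PD wounds also without unwounded replicate 2.

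**Figure D3:**
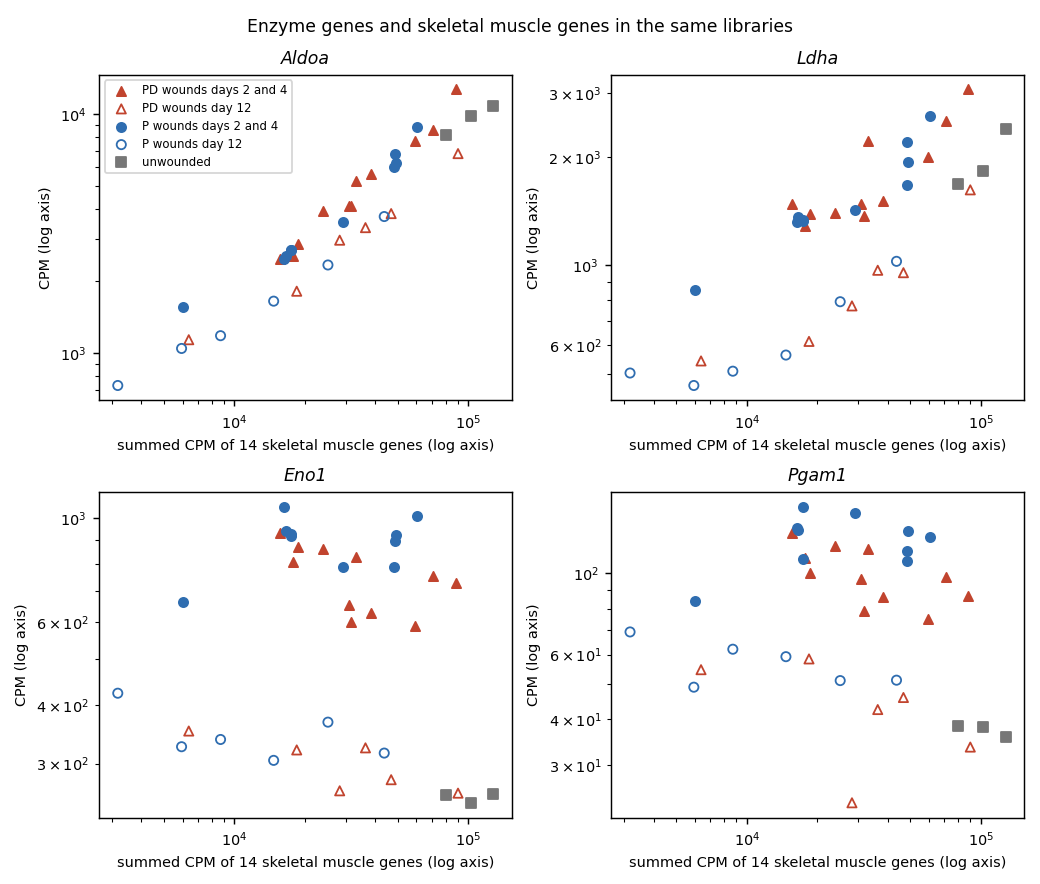
Level of Aldoa, Ldha, Eno1 and Pgam1 (CPM) against the summed CPM of 14 skeletal muscle genes in the 36 libraries, both axes logarithmic, coloured by group. The unwounded libraries lie toward the high end of the muscle axis, and Eno1 is at 590 CPM or more in every library of days 2 and 4.

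Pgk1, which makes the first ATP of the pathway, had 155 to 435 (median 212) CPM in PD wounds and 131 to 246 (median 163) CPM in P wounds at day 12, against 453, 545 and 377 CPM in unwounded skin. P libraries lay wholly below unwounded skin and the highest PD library overlapped it. Pgk1 was lower, changing by -0.94 ± 0.25 log2 units (1.92-fold lower, adjusted p = 0.00335) in PD wounds and by -1.37 ± 0.25 log2 units (2.59-fold lower, adjusted p = 6.03e-05) in P wounds. Pkm, pyruvate kinase of muscle and dividing cells, was lower at day 12 in PD wounds (-0.72 log2 units, adjusted p = 0.036) and P wounds (-1.19 log2 units, adjusted p = 0.000908), with both calls lost under the skeletal muscle covariate. That of PD wounds was also lost without any 1 of the unwounded libraries or PD replicate 2, 5 or 6. With the covariate, Pkm was instead higher in P wounds at day 2 (1.18 ± 0.17 log2 units, adjusted p = 1.17e-06). That value is extrapolated, as muscle markers summed to 17440 to 49090 CPM there, against 80110 to 127900 CPM in unwounded skin. Hk2, the hexokinase of muscle and growing cells, was lower at day 12 in PD wounds (-1.21 log2 units, adjusted p = 0.00247, lost without unwounded replicate 2) and in P wounds (-1.51 log2 units, adjusted p = 0.000253, lost with the covariate). Gpi1, which makes fructose 6-phosphate, was lower at day 12 in P wounds (-0.96 log2 units, adjusted p = 0.0014), and that call was lost with the covariate. Pfkp was lower in PD wounds at day 12 (-0.66 log2 units, adjusted p = 0.0423), a call lost under several alternatives that included DESeq2. Aldoc, the brain-type aldolase, was not called against unwounded skin at any day in either arm. Reads of Gapdh, Ldha, Eno1, Pgk1, Pgam1, Tpi1, Pkm and Aldoa can be shared with processed pseudogenes, so their exact levels are uncertain, and Aldoa carries a second identifier that held 1050 of its reads against 4865645 in the one used.

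Compared per kb of transcript, Aldoa was the most abundant member in unwounded skin at 6360 ± 900 CPM per kb (SD, n = 3), ahead of Gapdh (2110 ± 413) and Ldha (1240 ± 233). These 3 did not overlap by their SDs. Pkm (757 ± 141) and Tpi1 (722 ± 103) followed and did overlap. Slc2a3 (1.17 ± 0.146) and Car9 (0.658 ± 0.0628) were the lowest of the 34. Within families the wound libraries held a different mix of isoforms. Eno1 made up 37.2 ± 13% of enolase CPM per kb in PD wounds and 43.0 ± 12.4% in P wounds at day 2 (SD, n = 5 each), against 6.39 ± 1.03% in unwounded skin (n = 3), where Eno3, the enolase of muscle, made up most of the rest. At day 12 the Eno1 share was 26.2 ± 19.2% in PD wounds and 44.5 ± 21.3% in P wounds (n = 6 each), when the CPM of Eno1 itself was called higher in P wounds by 0.44 log2 units and not called in PD wounds. Eno3 stood at 579 ± 469 CPM per kb in PD wounds and 261 ± 234 in P wounds at day 12, against 1650 ± 307 in unwounded skin.

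Slc2a3 made up 27.5 ± 5.29% of the CPM per kb of the listed glucose carriers in PD wounds and 36.7 ± 11.1% in P wounds at day 2. At day 4 its share was 49.2 ± 8.06% in PD wounds and 45.1 ± 5.46% in P wounds, against 1.05 ± 0.275% in unwounded skin. Slc2a4, the insulin-responsive carrier of muscle and fat, held 81.9% there. Hk3, the hexokinase of white blood cells and not a member, made up 26.4 ± 2.19% of hexokinase CPM per kb in PD wounds and 27.2 ± 4.98% in P wounds at day 2, against 1.01 ± 0.286% in unwounded skin. Ldha kept 90% to 96% of its family in every group mean. These shares rest on 1 transcript length per gene, and how far muscle content sets them was not tested.

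**Figure D4:**
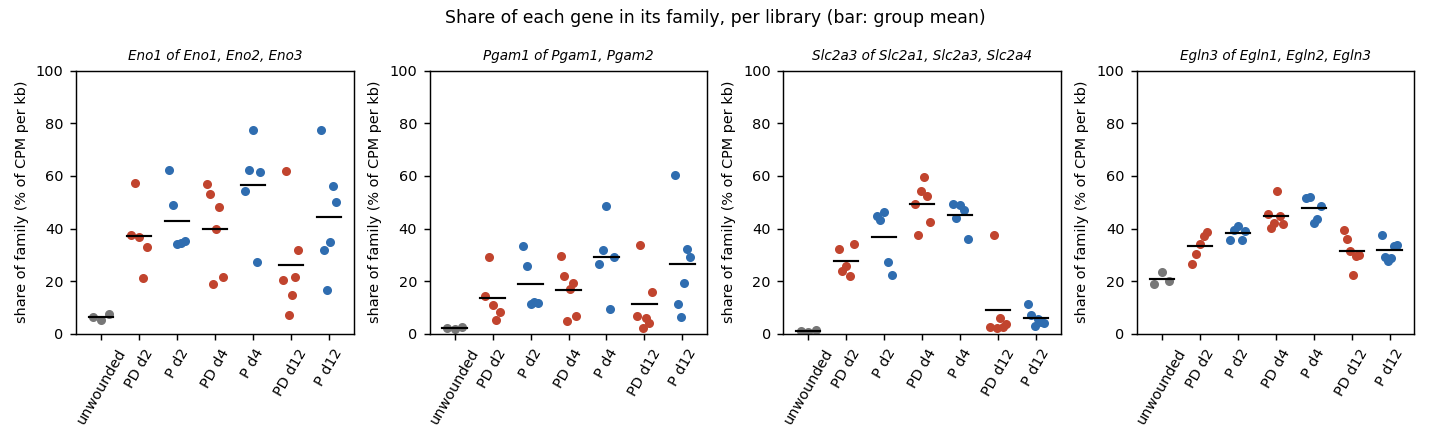
Share (%) of family CPM per kb held by Eno1, Pgam1, Slc2a3 and Egln3 in each library, by arm and day, with a bar at each group's mean. The Slc2a3 share is 36.1 to 59.5% at day 4 and 0.755 to 1.30% in unwounded skin.

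The regulators did not move as 1 group. Pfkfb4, which sets the level of the phosphofructokinase activator fructose 2,6-bisphosphate, rose at day 2 in PD wounds (0.96 log2 units, adjusted p = 0.00123) and P wounds (1.18 log2 units, adjusted p = 0.000139). At day 4 it also rose in PD wounds (1.06 log2 units, adjusted p = 0.000294) and P wounds (0.83 log2 units, adjusted p = 0.00396). Pfkfb3, which acts on the same signal, had 94.9, 122 and 54.2 CPM in unwounded skin, 116, 149, 116, 67 and 70.8 CPM in PD wounds at day 2 and 108, 143, 153, 129 and 116 CPM in P wounds at day 2. At day 4 Pfkfb3 had 89 to 211 (median 140) CPM in PD wounds and 91.2, 80.3, 55.1, 134 and 96.8 CPM in P wounds, and at day 12 18.5 to 44.1 (median 27.6) CPM in PD wounds and 17.9 to 42 (median 24.3) CPM in P wounds. Unwounded libraries overlapped those of days 2 and 4 and stood above all of day 12. Pfkfb3 was lower at day 12, changing by -1.64 ± 0.29 log2 units (3.12-fold lower, adjusted p = 4.93e-05) in PD wounds and by -1.76 ± 0.29 log2 units (3.4-fold lower, adjusted p = 1.85e-05) in P wounds. Pdk1, the kinase that closes pyruvate dehydrogenase, is a HIF target in many cells. It was lower at day 12 in PD wounds (-0.50 log2 units, adjusted p = 0.00222) and P wounds (-0.67 log2 units, adjusted p = 9.02e-05). It was also lower in PD wounds at day 2 (-0.46 log2 units, adjusted p = 0.0058) and day 4 (-0.34 log2 units, adjusted p = 0.0298), and without unwounded replicate 2 none of the 3 calls in PD wounds held.

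Hif1a (ENSMUSG00000021109, chr12:73948149-73996321, plus strand, GRCm39) encodes the oxygen-regulated subunit HIF-1 alpha, which is controlled mainly at the protein level. Its transcript stood at 52.5, 50.2 and 49 CPM in unwounded skin, 172, 162, 104, 89.8 and 111 CPM in PD wounds at day 2 and 225, 158, 172, 151 and 122 CPM in P wounds at day 2. At day 4 Hif1a stood at 66.4 to 119 (median 88.7) CPM in PD wounds and 94.4, 96.2, 103, 88 and 138 CPM in P wounds. At day 12 Hif1a stood at 19.6 to 54.1 (median 30.2) CPM in PD wounds and 29.8 to 166 (median 39.6) CPM in P wounds. All libraries of days 2 and 4 were above unwounded skin, and at day 12 most were near or below it, with P replicate 1 far above. Hif1a rose at day 2 by 1.34 ± 0.40 log2 units (2.53-fold higher, adjusted p = 0.00871) in PD wounds and by 1.71 ± 0.41 log2 units (3.28-fold higher, adjusted p = 0.00117) in P wounds. At day 4 Hif1a changed by 0.86 ± 0.39 log2 units (adjusted p = 0.0641) in PD wounds, where it missed the threshold, and by 1.04 ± 0.40 log2 units (2.05-fold higher, adjusted p = 0.0343) in P wounds. The day 4 call in P wounds was lost without any 1 of the unwounded libraries or P replicate 5. At day 12 Hif1a changed by -0.63 log2 units, adjusted p = 0.157 in PD wounds and 0.27 log2 units, adjusted p = 0.574 in P wounds. Without P day 12 replicate 1 the change in P wounds was -0.33 log2 units, also not called, and limma-voom with sample weights, which kept that library, called Hif1a lower there (-0.404 log2 units, adjusted p = 0.0421). Without the 4 libraries that stand apart, Hif1a in PD wounds was called at day 4 (0.849 log2 units, adjusted p = 0.00424) and at day 12 (-0.827 log2 units, adjusted p = 0.00515).

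Egln1, the main prolyl hydroxylase that marks HIF alpha for destruction, had 195, 228 and 175 CPM in unwounded skin, 93.9, 87.3, 97.2, 106 and 100 CPM in PD wounds at day 2 and 87.6, 123, 114, 123 and 117 CPM in P wounds at day 2. At day 4 Egln1 had 89.1 to 150 (median 115) CPM in PD wounds and 125, 128, 80.2, 114 and 120 CPM in P wounds, and at day 12 81.3 to 115 (median 90.8) CPM in PD wounds and 78.5 to 97.8 (median 80.4) CPM in P wounds. Every wound library was below every unwounded one. The change was -1.04 ± 0.15 log2 units (2.06-fold lower, adjusted p = 1.67e-06) in PD wounds and -0.82 ± 0.15 log2 units (1.77-fold lower, adjusted p = 3.86e-05) in P wounds at day 2, and -1.08 ± 0.14 log2 units (2.11-fold lower, adjusted p = 4.15e-07) in PD wounds and -1.23 ± 0.14 log2 units (2.34-fold lower, adjusted p = 4.55e-08) in P wounds at day 12. Egln3, a second prolyl hydroxylase that HIF itself induces, had 112 to 192 (median 138) CPM in PD wounds and 180, 183, 94.5, 136 and 145 CPM in P wounds at day 4, against 56.6, 76.8 and 55.3 CPM in unwounded skin, with no overlap. It rose by 1.20 ± 0.24 log2 units (2.3-fold higher, adjusted p = 0.000188) in PD wounds and by 1.23 ± 0.25 log2 units (2.35-fold higher, adjusted p = 0.000231) in P wounds, and at day 2 in P wounds (0.81 log2 units, adjusted p = 0.00904). As shares of the 3 prolyl hydroxylases per kb, Egln3 held 44.8 ± 5.06% in PD wounds and 47.6 ± 4.47% in P wounds at day 4, against 20.9 ± 2.2% in unwounded skin. Egln1 held a mean of 22.1% to 26.1% in the wound groups, against 40.4 ± 1.69% in unwounded skin.

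The 11 effectors split between higher and lower. At day 2, 3 were higher and 3 lower in PD wounds, and 4 were higher and 2 lower in P wounds. These shares (27.3% and 27.3% in PD wounds, 36.4% and 18.2% in P wounds) lay near or somewhat above those of all genes (21% and 18.4%, 22.3% and 19%). At day 4, 6 were higher and 3 lower in PD wounds, and 5 were higher and 2 lower in P wounds, with 54.5% higher in PD wounds and 45.5% in P wounds, against 25.4% and 23.6% of all genes. At day 12, 1 was higher and 5 lower (45.5%) in each arm, against 20.7% of all genes lower in PD wounds and 20% in P wounds. Ankrd37 (ENSMUSG00000050914, chr8:46449939-46458744, minus strand, GRCm39), an ankyrin repeat gene known as a HIF target, had 5.2, 3.61 and 4.4 CPM in unwounded skin, 10, 9.44, 11.2, 10.3 and 10.9 CPM in PD wounds at day 2 and 16.8, 23.1, 21.8, 18.6 and 15.4 CPM in P wounds at day 2. At day 4 Ankrd37 had 16.4 to 73.6 (median 28.5) CPM in PD wounds and 19.4, 16.6, 10.2, 35.1 and 13.9 CPM in P wounds, and at day 12 2.7 to 9.54 (median 3.19) CPM in PD wounds and 3.15 to 4.68 (median 3.87) CPM in P wounds. Days 2 and 4 lay above unwounded skin, and day 12 around it. Ankrd37 rose at day 4 by 2.94 ± 0.44 log2 units (7.67-fold higher, adjusted p = 2.54e-06) in PD wounds and by 2.11 ± 0.42 log2 units (4.32-fold higher, adjusted p = 0.000194) in P wounds. At day 2 Ankrd37 rose by 1.24 ± 0.41 log2 units (2.36-fold higher, adjusted p = 0.0158) in PD wounds and by 2.12 ± 0.42 log2 units (4.35-fold higher, adjusted p = 0.000164) in P wounds, and the call in PD wounds was lost without unwounded replicate 2.

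Car9, a carbonic anhydrase of the cell surface that handles acid from glycolysis, was low throughout. It had 1.31, 1.22 and 1.47 CPM in unwounded skin, 4.64, 3.78, 2.58, 4.55 and 6.32 CPM in PD wounds at day 2 and 4.17, 3.29, 7.3, 4.37 and 4.68 CPM in P wounds at day 2. At day 4 Car9 had 4.13 to 6.49 (median 4.87) CPM in PD wounds and 5.71, 6.62, 6.09, 5.02 and 4.92 CPM in P wounds, and at day 12 1.46 to 2.9 (median 2.18) CPM in PD wounds and 1.53 to 4.2 (median 2.33) CPM in P wounds. All libraries of days 2 and 4 exceeded unwounded skin, and at day 12 the lowest PD library overlapped it and the lowest P library lay just above it. Car9 rose at day 2 by 1.72 ± 0.31 log2 units (3.29-fold higher, adjusted p = 6.18e-05) in PD wounds and by 1.84 ± 0.32 log2 units (3.57-fold higher, adjusted p = 2.25e-05) in P wounds. At day 4 Car9 rose by 1.94 ± 0.31 log2 units (3.84-fold higher, adjusted p = 7.6e-06) in PD wounds and by 2.09 ± 0.32 log2 units (4.27-fold higher, adjusted p = 4.89e-06) in P wounds. At day 12 it was higher by 0.72 ± 0.29 log2 units (1.65-fold higher, adjusted p = 0.0455) in PD wounds and 0.89 ± 0.30 log2 units (1.86-fold higher, adjusted p = 0.0155) in P wounds. The day 12 call in PD wounds was lost under 12 alternatives, and that in P wounds without unwounded replicate 2 or without the 4 libraries that stand apart.

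Bnip3 (ENSMUSG00000078566, chr7:138490690-138511253, minus strand, GRCm39), which sends mitochondria to autophagy, was lower. It had 165, 208 and 120 CPM in unwounded skin, 93.9, 87.3, 107, 70.2 and 52.6 CPM in PD wounds at day 2 and 83.5, 135, 104, 88.4 and 110 CPM in P wounds at day 2. At day 4 Bnip3 had 68 to 108 (median 88.4) CPM in PD wounds and 79.4, 73.6, 47.3, 100 and 76.5 CPM in P wounds, and at day 12 23.2 to 64.5 (median 33) CPM in PD wounds and 14.8 to 42.1 (median 26.2) CPM in P wounds. All PD libraries and all day 4 and day 12 libraries were below the lowest unwounded library, and P wounds at day 2 overlapped it. At day 12 Bnip3 fell by 2.12 ± 0.28 log2 units (4.33-fold lower, adjusted p = 7.98e-07) in PD wounds and by 2.57 ± 0.29 log2 units (5.93-fold lower, adjusted p = 3.52e-08) in P wounds, and with the skeletal muscle covariate the change in P wounds was -1.95 ± 0.33 log2 units (adjusted p = 4.73e-05). At day 4 Bnip3 changed by -0.90 log2 units, adjusted p = 0.0111 in PD wounds and -1.12 log2 units, adjusted p = 0.00318 in P wounds. At day 2 Bnip3 changed by -1.0 log2 units, adjusted p = 0.00849 in PD wounds and -0.65 log2 units, adjusted p = 0.0816 in P wounds. The calls of PD wounds at days 2 and 4 and of P wounds at day 4 were lost with the covariate, and those of PD wounds also without unwounded replicate 2.

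Vegfa (ENSMUSG00000023951, chr17:46327919-46343309, minus strand, GRCm39), the growth factor for blood vessels, had 135, 204 and 106 CPM in unwounded skin, 174, 179, 181, 182 and 190 CPM in PD wounds at day 2 and 184, 258, 267, 253 and 235 CPM in P wounds at day 2. At day 4 Vegfa had 116 to 324 (median 224) CPM in PD wounds and 111, 129, 76.8, 268 and 236 CPM in P wounds, and at day 12 58.3 to 92.5 (median 73.7) CPM in PD wounds and 57.9 to 94 (median 77.6) CPM in P wounds. Days 2 and 4 overlapped unwounded skin, whose own values spread widely, and all of day 12 was below it. Vegfa was not called at days 2 and 4, with 0.29 log2 units, adjusted p = 0.475 in PD wounds and 0.69 log2 units, adjusted p = 0.0735 in P wounds at day 2. The day 4 values were 0.58 log2 units, adjusted p = 0.111 in PD wounds and 0.15 log2 units, adjusted p = 0.721 in P wounds. Vegfa was lower at day 12, changing by -0.97 ± 0.28 log2 units (1.96-fold lower, adjusted p = 0.00693) in PD wounds and -0.97 ± 0.28 log2 units (1.96-fold lower, adjusted p = 0.00679) in P wounds. Both day 12 calls were lost without unwounded replicate 2 and with the skeletal muscle covariate.

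Bhlhe40, a repressor of transcription that low oxygen induces, had 180, 174, 174, 215 and 232 CPM in PD wounds and 217, 212, 234, 252 and 255 CPM in P wounds at day 2, against 102, 149 and 88.9 CPM in unwounded skin. No day 2 library overlapped unwounded skin. It rose at day 2 by 0.79 ± 0.21 log2 units (1.72-fold higher, adjusted p = 0.00318) in PD wounds and by 1.05 ± 0.21 log2 units (2.07-fold higher, adjusted p = 0.000169) in P wounds, and at day 4 by 1.08 ± 0.21 log2 units (2.11-fold higher, adjusted p = 8.33e-05) in PD wounds and 0.67 ± 0.21 log2 units (1.59-fold higher, adjusted p = 0.00986) in P wounds. Ddit4, an inhibitor of mTORC1 signalling, rose in P wounds at day 2 (0.93 log2 units, adjusted p = 0.00255) and at day 4 in PD wounds (1.18 log2 units, adjusted p = 0.00017) and P wounds (0.91 log2 units, adjusted p = 0.00296). Higd1a, a small protein of the mitochondrial inner membrane, rose at day 4 in PD wounds (0.49 log2 units, adjusted p = 0.00946) and P wounds (0.62 log2 units, adjusted p = 0.00204). Mxi1, a repressor that opposes Myc, had 44.7 to 60.3 (median 53.2) CPM in PD wounds and 45.9 to 59.4 (median 51.1) CPM in P wounds at day 12, against 127, 114 and 138 CPM in unwounded skin. It was lower then, changing by -1.26 ± 0.15 log2 units (2.4-fold lower, adjusted p = 8.64e-08) in PD wounds and -1.27 ± 0.15 log2 units (2.42-fold lower, adjusted p = 7.45e-08) in P wounds. No day 12 library overlapped unwounded skin. Mxi1 was also called lower in both arms at days 2 and 4, and the calls of P wounds at day 2 and of both arms at day 4 were lost under 14 to 16 alternatives each. Ndrg1, a gene of differentiated epidermis that low oxygen induces, was called lower in every wound group except P wounds at day 4 (-0.63 log2 units, adjusted p = 0.06), where every library was also below unwounded skin, with -1.14 ± 0.26 log2 units (2.21-fold lower, adjusted p = 0.000776) in PD wounds at day 12, and its calls in P wounds were lost without any 1 of the unwounded libraries. Kdm3a, a histone demethylase, was higher in PD wounds at day 4 (0.44 log2 units, adjusted p = 0.0315, lost without PD replicate 4) and lower at day 12 in PD wounds (-0.49 log2 units, adjusted p = 0.0158) and P wounds (-0.46 log2 units, adjusted p = 0.0235), both lost without unwounded replicate 1 or 3. Adm, the vessel peptide adrenomedullin, was not called, and its libraries of 1 group differed widely. It had 26.6, 22.9, 22.7, 5.31 and 5.77 CPM in PD wounds and 27.5, 42.8, 3.93, 5.17 and 6.48 CPM in P wounds at day 2, against 4.79, 4.69 and 3.62 CPM in unwounded skin.

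Most of the set fell between day 4 and day 12, a comparison without the unwounded libraries. In PD wounds 26 of the 34 were lower at day 12 and none higher, where 15.6% of all genes were lower and 15.7% higher. In P wounds 28 were lower and none higher, against 12.6% and 11.2%, and 29 were lower without the 4 libraries that stand apart. The median change over the 34 genes was -1.21 in PD wounds and -1.07 in P wounds, beside -0.003 and -0.008 over all tested genes. Slc2a3 fell by 5.03 ± 0.63 log2 units (32.8-fold lower, adjusted p = 3.57e-07) in PD wounds and by 5.39 ± 0.65 log2 units (42-fold lower, adjusted p = 9.25e-07) in P wounds. Without PD day 12 replicate 2, at 55.7 CPM, the change of Slc2a3 in PD wounds was -6.5 ± 0.492 log2 units (90.2-fold lower, adjusted p = 1.19e-10). Slc16a3 fell by 3.46 ± 0.41 log2 units (11-fold lower, adjusted p = 2.02e-07) in PD wounds and by 3.23 ± 0.42 log2 units (9.39-fold lower, adjusted p = 2.66e-06) in P wounds. Among the enzymes, Eno1 fell by 1.47 ± 0.11 log2 units (2.77-fold lower, adjusted p = 1.14e-10) in PD wounds and by 1.41 ± 0.12 log2 units (2.66-fold lower, adjusted p = 2.43e-09) in P wounds, and Pfkl fell by 1.58 ± 0.14 log2 units (2.99-fold lower, adjusted p = 3.65e-09) in PD wounds and by 1.37 ± 0.15 log2 units (2.58-fold lower, adjusted p = 2.3e-07) in P wounds. Ldha fell by 1.14 ± 0.26 log2 units (2.2-fold lower, adjusted p = 0.0011) in PD wounds and by 1.21 ± 0.27 log2 units (2.32-fold lower, adjusted p = 0.00144) in P wounds. Hif1a fell in PD wounds (-1.50 log2 units, adjusted p = 0.000342), and its change in P wounds was -0.76 log2 units, adjusted p = 0.0774. Without P day 12 replicate 1 the change of Hif1a in P wounds was -1.37 ± 0.234 log2 units and passed the test (adjusted p = 7.23e-05). The changes of all 34 genes had the same sign in the 2 arms, and 24 were called lower in both. Neither share was computed over all genes. Across the 34 genes, which are not independent replicates, the changes of the 2 arms correlated at Pearson's r = 0.96 and Spearman's rho = 0.81. Neutrophil markers fell over the same interval, summing to 8.0 to 361 CPM in PD wounds and 11.9 to 454 CPM in P wounds at day 12. At day 4 they summed to 2614 to 13920 CPM in PD wounds and 2489 to 9283 CPM in P wounds. Other cell types moved as well: 6 of 9 macrophage markers were lower in each arm, and 4 of 8 keratinocyte markers were lower in PD wounds and 5 in P wounds. Macrophage markers summed to 403 to 1453 CPM in PD wounds and 202 to 2181 CPM in P wounds at day 12. Of 8 tested hair follicle markers, 8 were higher in PD wounds and 4 in P wounds. The P count includes day 4 replicate 3, with 6188 CPM of these markers against a group median of 10.98 CPM. At day 12 they summed to 663.7 to 9572 CPM in PD wounds and 537 to 10560 CPM in P wounds. Of 6 fibroblast markers 3 were higher in PD wounds and none in P wounds. The part of these markers was not tested. With the skeletal muscle covariate 30 members were lower in PD wounds and 31 in P wounds. The share of all genes lower in that fit is not given here.

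Fewer genes changed between day 2 and day 4. In PD wounds 6 members were higher at day 4 and none lower, where 2.67% of all genes were higher and 1.59% lower. Ankrd37 was higher by 1.70 ± 0.33 log2 units (3.25-fold higher, adjusted p = 0.00338), Kdm3a by 0.64 ± 0.14 log2 units (1.56-fold higher, adjusted p = 0.00952) and Ddit4 by 0.81 ± 0.20 log2 units (1.75-fold higher, adjusted p = 0.0154). Higd1a (0.53 log2 units, adjusted p = 0.016), Egln3 (0.75 log2 units, adjusted p = 0.0272) and Mxi1 (0.45 log2 units, adjusted p = 0.0447) were the others. The count was 2 without PD day 4 replicate 4, 2 without PD day 2 replicate 2 and 3 without PD day 2 replicate 3. In P wounds Higd1a was the single member called, with 0.60 ± 0.13 log2 units (adjusted p = 0.00532), where 5.76% of all genes were higher and 2.7% lower, and without P day 4 replicate 4 the count was 4. Higd1a had 84.3 to 123 (median 102) CPM in PD wounds at day 4, against 74.2, 65.7, 65.2, 73.5 and 75.3 CPM in PD wounds at day 2. In P wounds it had 118, 151, 68.9, 93 and 129 CPM at day 4, against 75.8, 79.9, 72.1, 68.6 and 73.8 CPM at day 2. PD values did not overlap between the days, and in P wounds replicate 3 of day 4 fell within the range of day 2. Of the 34 genes, 13 had a change of the same sign in both arms, with r = 0.41 and rho = 0.41 across genes. The share of all genes with the same sign was not computed.

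No member differed between PD and P wounds on any day by edgeR. The share of all genes called in PD against P was 0% at day 2, 0% at day 4, 0% at day 12 and 0% for the mean of the days, so no gene of the 20657 passed either. At day 2 all 34 members had a difference below 0 in PD against P wounds, as did 51.6% of all tested genes, with a median change of -0.34 against -0.01 over all genes. At an unadjusted p under 0.05, 9 members were lower and none higher, against 2.4% and 1.44% of all genes, and every adjusted p was 1. Kdm3a had 45.7, 42.7, 51.3, 45.3 and 48.5 CPM in PD wounds, against 59.8, 88.7, 72.4, 60.5 and 58.2 CPM in P wounds (-0.54 ± 0.15 log2 units, unadjusted p = 0.00103). Ankrd37 differed by -0.88 ± 0.34 log2 units, unadjusted p = 0.0129. Hk1 had 124, 127, 119, 134 and 144 CPM in PD wounds, against 149, 183, 187, 160 and 151 CPM in P wounds (-0.36 ± 0.17 log2 units, unadjusted p = 0.0398). In these 3 genes every PD library was below every P library, which held for 1.4% of all genes, and none had every PD library above (0.286% of all genes). Eno1 differed by -0.40 ± 0.12 log2 units, unadjusted p = 0.00222, and Pgam1 by -0.54 ± 0.17 log2 units, unadjusted p = 0.00326, with some overlap in each. The 8 neutrophil markers were likewise all below 0 (median -0.77), as were 8 of 9 macrophage markers (median -0.56), and all 6 adipocyte markers were above 0. None of these markers was called, and their part in the shift was not tested. Macrophage markers summed to 2650 to 4013 CPM in PD wounds, against 3981 to 6516 CPM in P wounds, and adipocyte markers to 465 to 4224 CPM in PD wounds, against 713 to 1536 CPM in P wounds.

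At day 4 the sign was mostly the other way. Of the 34 members, 24 had a difference above 0 in PD against P wounds, as did 49.3% of all genes, with a median change of 0.22 against -0.01. By edgeR 4 members were higher and none lower at an unadjusted p under 0.05, against 4.96% and 6.51% of all genes. The smallest adjusted p was 0.384, for Ankrd37 (0.83 ± 0.32 log2 units, unadjusted p = 0.0152). No member had PD libraries wholly below or above P libraries at day 4 (0.136% and 0.174% of all genes) or at day 12 (0.0629% and 0.0678%). limma-voom with sample weights called 7 members at day 4, 6 of them higher, among 2074 genes of all tested, and DESeq2 called no member among 174 genes. All 8 neutrophil and all 14 skeletal muscle markers were above 0 in PD against P at day 4, with medians of 0.73 and 0.78, and none was called. At day 12, 20 members had a difference above 0, as did 44.7% of all genes. At an unadjusted p under 0.05, 2 were higher and 2 lower, against 3.42% and 1.52% of all genes. The smallest adjusted p of a member was 0.884. Hif1a had 19.6 to 54.1 (median 30.2) CPM in PD wounds and 29.8 to 166 (median 39.6) CPM in P wounds (-0.90 ± 0.30 log2 units, unadjusted p = 0.00568). Without P day 12 replicate 1, at 166 CPM, that difference of Hif1a was -0.298 ± 0.22 log2 units, unadjusted p = 0.186. DESeq2 and limma-voom called no member at days 2 and 12 or for the mean of the days. For the mean of the days by edgeR, 3 members were lower and none higher at an unadjusted p under 0.05. Over all genes the shares were 5.81% lower and 6.23% higher, and the smallest adjusted p of a member was 0.403.

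Whether the difference between the arms itself changed from day 2 to day 4 was tested as an interaction. By edgeR 0% of all genes and no member passed, with a smallest adjusted p of 0.633 among members. The interaction was positive in 29 of the 34, as it was in 50.5% of all genes. At an unadjusted p under 0.05, 11 members were higher and none lower, against 3.87% and 3.25% of all genes. The interaction was 1.71 ± 0.47 log2 units, unadjusted p = 0.000857 for Ankrd37 and 0.77 ± 0.21 log2 units, unadjusted p = 0.000719 for Kdm3a. limma-voom called 14 members, 13 of them positive, among 2826 genes, and DESeq2 called none of the members. From day 4 to day 12 the interaction was again called in 0% of genes, with no member at an unadjusted p under 0.05 and a smallest adjusted p of 1. limma-voom and DESeq2 called no member there.

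**Figure D5:**
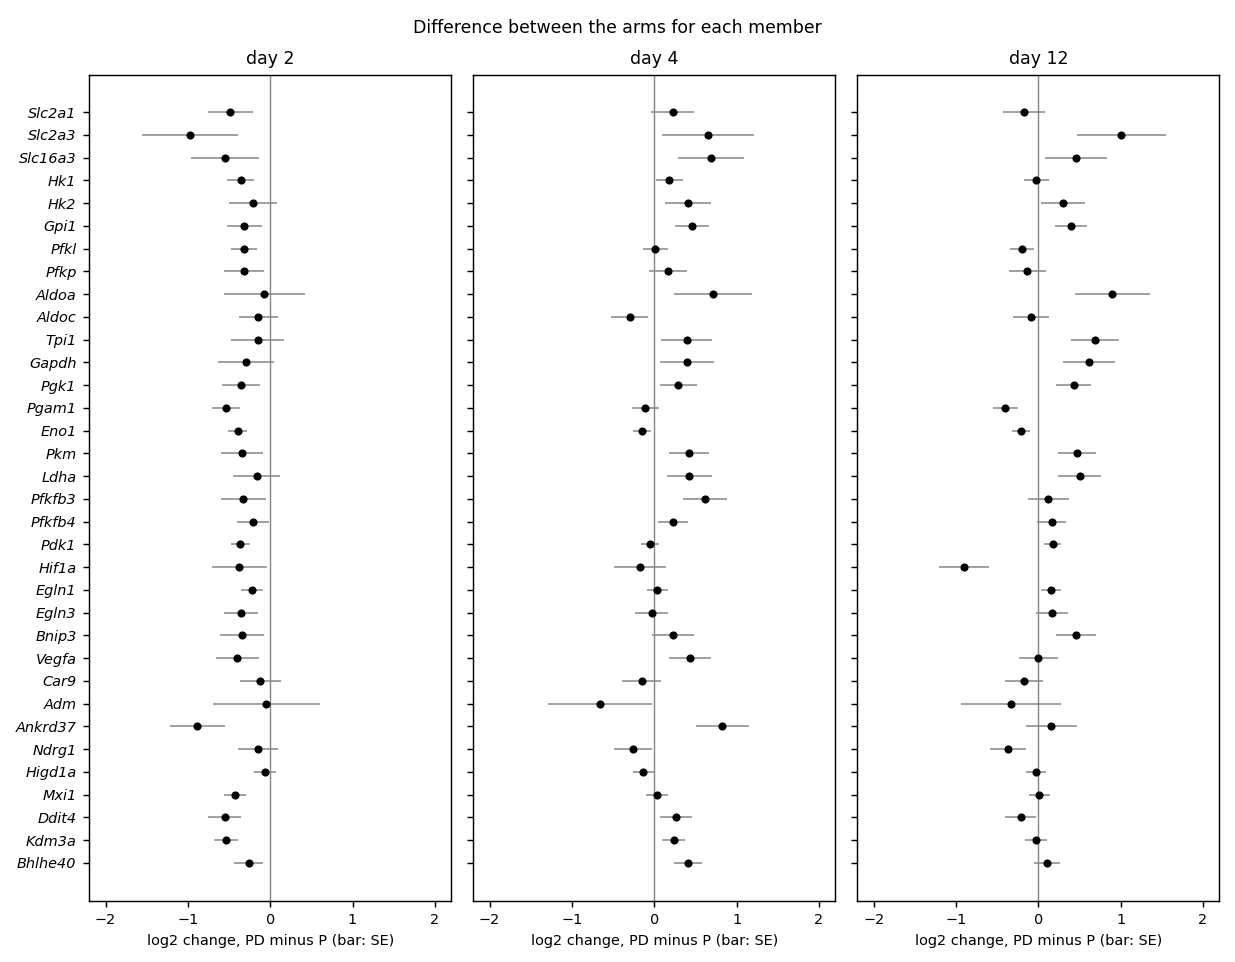
Difference between PD and P wounds (log2 ± SE) of the 34 genes at days 2, 4 and 12. All 34 points lie below 0 at day 2, 24 lie above 0 at day 4 and 20 at day 12, and none passes the test after adjustment.

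Genes around the set were read from lists made with earlier results of these data known. Their counts stand beside 21% of all genes higher and 18.4% lower in PD wounds and 22.3% and 19% in P wounds at day 2, and 24.2% and 20.7% in PD wounds and 23.7% and 20% in P wounds at day 12. Of 16 tested other isoforms and carriers, 5 were higher (31.2%) and 4 lower (25%) in both arms at day 2, and at day 12 4 were higher and 7 lower (43.8%) in PD wounds and 5 higher and 9 lower (56.2%) in P wounds. Hk3 rose at day 2 by 5.50 ± 0.80 log2 units (45.2-fold higher, adjusted p = 2.82e-06) in PD wounds and by 5.85 ± 0.81 log2 units (57.6-fold higher, adjusted p = 1.14e-06) in P wounds. The muscle isoforms Eno3, Pgam2 and Pfkm were lower in P wounds at day 12 (-2.66 log2 units, adjusted p = 0.00263, -2.58 log2 units, adjusted p = 0.00398 and -2.42 log2 units, adjusted p = 0.00136). Of 8 pentose phosphate genes, which supply NADPH and ribose, 5 were higher (62.5%) and none lower at days 2 and 4 in both arms. Pgd, which makes NADPH, rose in P wounds at day 2 by 1.53 ± 0.19 log2 units (2.89-fold higher, adjusted p = 2.12e-07) and G6pdx, the entry enzyme, by 0.92 ± 0.27 log2 units (1.89-fold higher, adjusted p = 0.00617). Of 12 genes of pyruvate entry to mitochondria, 10 were lower (83.3%) and 1 higher in PD wounds at day 12, and 10 lower and 2 higher in P wounds. Pdha1, a subunit of pyruvate dehydrogenase, was lower at day 12, changing by -1.45 ± 0.20 log2 units (2.74-fold lower, adjusted p = 1.34e-06) in PD wounds and -1.72 ± 0.20 log2 units (3.29-fold lower, adjusted p = 8.42e-08) in P wounds. Of 13 tested genes of gluconeogenesis and glycogen, 2 were higher and 8 lower (61.5%) in each arm at day 12, among them Ugp2, which makes the glycogen precursor UDP-glucose (-1.84 log2 units, adjusted p = 2.69e-05 in P wounds).

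Of 26 other targets of low oxygen, 11 were higher and 3 lower in PD wounds and 13 higher and 2 lower in P wounds at day 2, so that 42.3% in PD wounds and 50% in P wounds were higher, against 21% and 22.3% of all genes. At day 4, 10 were higher and 3 lower in PD wounds and 11 and 3 in P wounds (38.5% and 42.3% higher, against 25.4% and 23.6% of all genes). At day 12, 4 were higher and 6 lower in PD wounds (15.4% and 23.1%, against 24.2% and 20.7%) and 6 and 7 in P wounds (23.1% and 26.9%, against 23.7% and 20%), which is near or below the background. Wsb1 rose at day 4 in PD wounds by 1.75 ± 0.25 log2 units (3.36-fold higher, adjusted p = 1.39e-06). Fam162a rose at day 4 in P wounds by 1.57 ± 0.20 log2 units (2.97-fold higher, adjusted p = 3.26e-07). Zfp395 was lower in P wounds at day 2, changing by -1.27 ± 0.16 log2 units (2.41-fold lower, adjusted p = 3.09e-07). Of 13 genes of the HIF machinery, 2 were higher (15.4%) in every wound group, and 9 were lower (69.2%) in PD wounds and 8 (61.5%) in P wounds at day 12. Those higher in all 6 comparisons were Vhl (0.92 log2 units, adjusted p = 2.77e-06 in P wounds at day 2), which binds hydroxylated HIF alpha, and its partner Elob (0.56 log2 units, adjusted p = 0.00595 in P wounds at day 2). Hif1an, which blocks HIF activity when oxygen is present, and Cited2, which competes with HIF for its coactivators, were lower in P wounds at day 12 (-1.54 log2 units, adjusted p = 6.79e-06 and -1.33 log2 units, adjusted p = 2.55e-08).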

How the data were processed

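Libraries were made from total RNA with the TruSeq Stranded mRNA kit and sequenced on an Illumina NovaSeq, per the labels' protocols. The authors deposited raw read counts per gene, in 1 table for each of the 36 libraries. Per the submitters' processing notes, reads went through Trimmomatic, HISAT2 2.1.0 and SAMtools 1.9 to HTSeq on GRCm39. The strand setting and annotation release are not given in the sources used here.

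The counts were tested in R 4.3.3 with edgeR 4.0.16 (TMM, robust quasi-likelihood fit, low counts removed by filterByExpr at its limits of 10 per library and 15 in total) as 1 mean for each of 7 groups, with Benjamini-Hochberg adjustment over 20657 genes and a threshold of 0.05. No library was dropped or pooled. Alternatives used DESeq2 1.42.0, limma 3.58.1 (voom) and sva 3.50.0. The procedure was tested on simulated data. Values per kb used Ensembl canonical transcript lengths.

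The members and all gene lists were chosen with earlier results of these data known. Values per library are given for Hif1a, Slc2a1, Ldha and Vegfa and, in each comparison, for up to 4 members per direction with the smallest adjusted p, until about 20 were shown. From each other list up to 4 genes with the smallest adjusted p were eligible. Muscle isoforms, Adm, Higd1a, Kdm3a, Hk1 and members whose call a setting ended were named after their values were seen. Replicate numbers were not treated as pairs in the main fit, as no label states a pairing. Same-numbered libraries deviated together in some pairs and not in others, which does not exclude one.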

Additional observations from a re-analysis of the deposited data

Results flagged for a closer look

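In 19 of 204 combinations of a member and a wound group, touching 17 members, 1 library stood far from the others of its group. Chance alone gives this in about 1 of 20 combinations.

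P wounds at day 4 had the most. Replicate 4 was highest for Slc16a3 (637 CPM, the others 158 to 280), Aldoa (8860 CPM, the others 1570 to 2710), Gapdh (3410 CPM, the others 1130 to 1590), Pgk1 (657 CPM, the others 313 to 408) and Pkm (3680 CPM, the others 1400 to 2000). The same library held 60480 CPM of skeletal muscle markers and 9283 CPM of neutrophil markers, the highest of its group in both, and the part of either was not tested. Replicate 3 of that group was lowest for Hk1 (106 CPM, the others 161 to 169) and Mxi1 (71.3 CPM, the others 97.6 to 105), and it held 6188 CPM of hair follicle markers and 6005 CPM of muscle markers.

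In PD wounds at day 4, replicate 4 was highest for Pfkl (159 CPM, the others 130 to 135), Pfkp (396 CPM, the others 181 to 255) and Kdm3a (117 CPM, the others 52.7 to 75.1). It held 12290 CPM of neutrophil markers. In PD wounds at day 2, replicate 5 was highest for Pfkp (167 CPM, the others 135 to 140) and replicate 2 for Eno1 (808 CPM, the others 590 to 652). In P wounds at day 2, replicate 1 was lowest for Egln1 (87.6 CPM, the others 114 to 123).

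In PD wounds at day 12, replicate 2 was highest for Slc2a3 (55.7 CPM, the others 3.58 to 8.1) and Ankrd37 (9.54 CPM, the others 2.7 to 3.92), and it held the most neutrophil markers of its group (361 CPM). Replicate 3 was highest for Pgk1 (435 CPM, the others 155 to 252), and its muscle markers summed to 90330 CPM, the highest of its group. In P wounds at day 12, replicate 1 was highest for Hif1a (166 CPM, the others 29.8 to 57.0), with 372 CPM of neutrophil markers. Replicate 2 was highest for Higd1a (77.6 CPM, the others 51.1 to 60.3) and lowest for Pdk1 (36.6 CPM, the others 44.7 to 49.0), with 454 CPM of neutrophil markers.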

How the results depend on the processing

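Member counts were refitted under 13 settings besides the one reported, of which 4 (the skeletal muscle covariate, leaving out the 4 libraries that stand apart or only the 3 of P wounds, and a minimum count of 50) were chosen after seeing the data, and with each library left out in turn. The counts that moved by more than 1.5 times were these. In P wounds at day 12 against unwounded skin 11 members were called with the skeletal muscle covariate, against 20. In PD against P at day 4 limma-voom with sample weights called 7 members and for the arm difference at day 4 minus at day 2 it called 14, against 0 in edgeR. For P day 4 against day 2, limma-voom called 15, a fit to only the libraries compared 0, and 2 surrogate variables or the muscle covariate 2 each, against 1. For PD day 4 against day 2 the count was 3 with no composition factor, 10 with DESeq2 or with the muscle covariate, 15 with limma-voom and 11 with 2 surrogate variables, against 6. The cause was not tested. The number of all genes called also differed between methods, and its share is not given here for each setting. These counts, and those below, therefore show how the calls depend on the fit and nothing particular to the members.

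With 1 library left out, the members called ranged from 9 to 18 for PD day 12 against unwounded skin, 16 to 22 for P day 12, 18 to 22 for PD day 4, 16 to 20 for P day 4, 13 to 17 for PD day 2 and 15 to 18 for P day 2. They ranged from 26 to 29 for PD day 12 against day 4, 25 to 29 for P day 12 against day 4, 2 to 8 for PD day 4 against day 2 and 1 to 4 for P day 4 against day 2. All PD against P and interaction counts stayed at 0. The lowest count, 9, came without unwounded replicate 2.

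Signs turned in values that had not passed the test, with 1 exception: Aldoa in P wounds at day 4 against unwounded skin, which became 0.176 (log2) with the muscle covariate. Muscle levels of unwounded skin overlapped only those of PD wounds at days 4 and 12, so covariate values against unwounded skin are largely extrapolated. The same covariate turned Ldha to 0.266 in PD wounds at day 2, 0.381 in P wounds at day 2 (adjusted p = 0.0304) and 0.508 in P wounds at day 4 (adjusted p = 0.00969) against unwounded skin, and to 0.127 for P day 4 against day 2. Ldha in PD wounds at day 4 against unwounded skin became -0.253 with 2 surrogate variables, and ranged from -0.0778 to 0.226 with 1 library left out. Hif1a in P wounds at day 12 against unwounded skin became -0.404 with limma-voom (adjusted p = 0.0421), -0.866 with the muscle covariate and -0.461 without the 3 P libraries that stand apart or -0.471 without all 4, and ranged from -0.332 to 0.416 with 1 library left out. Vegfa in P wounds at day 4 against unwounded skin ranged from -0.0333 to 0.489, and Slc2a1 for P day 4 against day 2 from -0.0186 to 0.139. Of 172 called changes followed for single genes, 51 lost the call under at least 1 setting, counting the left-out libraries.

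Libraries with the same replicate number deviated together in some pairs and not in others (correlations from -0.39 to 0.73 over pairs). Between P wounds at day 2 and PD wounds at day 12, all 5 pairs correlated at 0.14 to 0.38. Differently numbered libraries were not compared, so these values neither establish nor exclude a pairing. With the replicate number as a block the counts were 30 for P day 12 against day 4 and 28 for PD day 12 against day 4, 23 for PD day 4 and 20 for P day 4 against unwounded skin, 18 for PD day 2 and 17 for P day 2, 18 for PD day 12 and 20 for P day 12, 7 for PD day 4 against day 2 and 1 for P day 4 against day 2, and 0 for each PD against P comparison. Ldha in PD wounds at day 4 became -0.0313 under the block. Depth is least in PD day 4 replicate 6, with 11807291 reads, and low genes such as Car9 carry the largest counting error there. With 3 unwounded libraries, each weighs heavily on the 6 comparisons against them.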

Other observations

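The tested genes outside the lists whose levels were most like the mean of the 14 enzymes were Rabgef1, Msrb1, Prdx6, Ankrd33b and Sorl1. Likeness was measured as Pearson's r with the standardised mean log2(CPM + 1) of the enzymes over the 36 libraries and ran from 0.931 to 0.941. The libraries fall into 7 groups, so these values describe the shared course over days, arms and unwounded skin and carry no test.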
